A study of Mus musculus with 10 samples.

Results

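The genes described here are 42 chromatin regulators: enzymes that write or erase DNA methylation, histone methylation and histone acetylation, some subunits of both polycomb repressive complexes, and a few genes of ATP-dependent remodelers. A gene was kept when a probe set of the array named it and no other gene, and where several probe sets did, the one of highest mean signal over the 10 arrays stood for the gene. This left 38 of the 42 genes, out of 30723 genes named in this way. Hdac5, Arid1a and Chd4 were dropped because their probe sets also listed a microRNA, and Suv39h1 because no annotated probe set named it.

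Expression was measured on 10 microarrays of CD4+ T cells from lymph nodes of female C57BL/6 mice aged 6 to 8 weeks. All mice carried a Foxp3-RFP reporter, so that regulatory T (Treg) cells, which express Foxp3, could be sorted as RFP-positive and conventional T (Tconv) cells as RFP-negative, with 50000 cells per sample. The WT mice were compared with Il2ramut/mut mice, which are homozygous for a point mutation in the gene of CD25, the high affinity chain of the IL-2 receptor, and whose Treg cells receive a weaker IL-2 signal. Treg cells were hybridized to 3 arrays per genotype and Tconv cells to 2, treated as separate mice from a design text that speaks of 2 or 3 mice per genotype, and per the study's methods the Tconv cells were naive (CD62L high, CD44 low, CD25 negative). The reporter is shared by every group, and the point mutation leaves the Il2ra transcript measurable, so that transcript does not check the genotype labels.

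Polycomb repressive complex 2 methylates histone H3 and polycomb repressive complex 1 ubiquitinates histone H2A, and both hold genes silent. Methylation of cytosine in CpG dinucleotides is laid down by the Dnmt enzymes and removed through oxidation by the Tet enzymes, and Treg cells are known for a set of demethylated regions, one of them in Foxp3, that keeps their identity stable. Acetylation of histones by acetyltransferases opens chromatin, and deacetylases (the Hdac and Sirt families) reverse it.

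Between the genotypes, 1 of the 38 genes was called: Scmh1, a polycomb repressive complex 1 component, was lower in Il2ramut/mut than in WT Treg cells. Between cell types, Tet1, Tet3, Kmt2c and Kmt2d were lower in Treg than in naive Tconv cells, and Ezh2 and Hdac9 were higher, in both genotypes. The histone demethylases and acetyltransferases were not called in any comparison.

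The RefSeq promoter windows (GRCm38.p6, 300 bases around an annotated start) of the genes with the lowest p between the Treg genotypes are shown here, because Scmh1 was the only gene called there. Capitals mark CpG dinucleotides, the substrate of the Dnmt and Tet enzymes. Scmh1 has a start at chr4:120405098-120405397 (+ strand) with 54 CpG, at a percentile of 99.75 among all windows, and another at chr4:120452994-120453293 (+ strand) with 0. Hdac9 at chr12:34917046-34917345 (− strand) has 0 and at another start, not shown, 3, and Hdac2 at chr10:36974294-36974593 (+ strand) has 36. The median over all 32851 windows was 7.
Scmh1, CpG-dense start: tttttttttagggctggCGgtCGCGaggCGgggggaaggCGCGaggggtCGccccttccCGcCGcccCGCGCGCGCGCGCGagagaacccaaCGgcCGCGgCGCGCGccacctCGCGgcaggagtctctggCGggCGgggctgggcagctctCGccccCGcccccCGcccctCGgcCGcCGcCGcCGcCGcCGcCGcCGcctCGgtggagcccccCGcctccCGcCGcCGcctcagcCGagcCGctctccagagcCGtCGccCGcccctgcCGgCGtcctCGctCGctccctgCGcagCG
Scmh1, start without CpG: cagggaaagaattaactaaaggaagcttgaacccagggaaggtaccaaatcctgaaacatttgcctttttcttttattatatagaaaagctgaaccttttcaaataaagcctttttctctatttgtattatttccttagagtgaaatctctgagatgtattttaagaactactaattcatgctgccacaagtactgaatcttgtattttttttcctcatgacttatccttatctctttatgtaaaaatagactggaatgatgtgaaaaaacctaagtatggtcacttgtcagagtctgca
Hdac9: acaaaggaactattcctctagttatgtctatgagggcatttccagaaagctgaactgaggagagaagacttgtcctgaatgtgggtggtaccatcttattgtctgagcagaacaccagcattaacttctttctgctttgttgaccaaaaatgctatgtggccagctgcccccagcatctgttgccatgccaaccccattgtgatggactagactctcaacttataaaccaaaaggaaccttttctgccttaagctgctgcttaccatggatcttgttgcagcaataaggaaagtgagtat
Hdac2: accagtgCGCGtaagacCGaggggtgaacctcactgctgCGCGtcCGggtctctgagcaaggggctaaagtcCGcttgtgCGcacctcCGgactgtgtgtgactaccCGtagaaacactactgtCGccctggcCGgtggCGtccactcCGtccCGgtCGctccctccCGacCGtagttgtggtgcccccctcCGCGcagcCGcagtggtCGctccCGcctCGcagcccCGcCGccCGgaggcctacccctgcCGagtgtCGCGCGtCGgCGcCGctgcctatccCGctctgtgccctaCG
So the windows of these genes range from CpG-free to CpG-dense, and those of Scmh1 differ from each other in the same way. The sources do not say which start the probe set of Scmh1 measures.

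STAT5, which IL-2 activates, binds the letters TTCNNNGAA, and FOXO factors bind a core of TGTTTAC; both motifs were searched on both strands. A window was found for 34 of the 38 genes, 46 windows in all. The STAT5-type motif was in 4 of these, those of Phc1, Hdac7 (with both of its matching windows) and Kmt2d, against 8.3% of all windows. The match of Kmt2d, TTCATGGAA at chr15:98871254-98871262, is the only one in a gene described below with its values per array. The FOXO-type core was in 2 windows, of Eed and Hdac7, against 3.65% of all, and neither motif was in a window of Scmh1, Hdac9 or Hdac2. A match is a run of letters and not a binding site.

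The median log2 signal of an array was 4.97 to 5.13. Between 40.3% and 51.3% of the probe sets exceeded the background of their array, the 95th percentile of 23 control probe sets that match no mouse transcript. With so few arrays, precision is limited throughout. Treg markers matched the labels: Il2ra, Ikzf2, Ctla4 and Tnfrsf18 were each higher in Treg than Tconv cells in both genotypes, with a median difference of 7.73 in WT. The naive T cell markers Ccr7, Lef1 and Il7r were each lower in Treg cells. The mean of 4 B cell markers was 4.48 to 4.74 with 0 of 4 above background on every array, and that of 5 myeloid markers was 5.01 to 5.29 with 1 to 3 of 5 above background. Of the myeloid markers Csf1r and Adgre1 were at background in every group, and Lyz2 was above it on all arrays without being called. Cd14, also not called, was above background on all Tconv arrays, on 2 WT Treg arrays and on 1 Il2ramut/mut Treg array. Itgam was lower in Treg cells in both genotypes (-0.68 in WT). Of 4 NK cell markers, 1 to 3 were above background on an array. Ncr1, a receptor of the lineage, was at background in every group, and Nkg7 was higher and Eomes lower in Treg cells in both genotypes. Klrb1c was called higher in Treg than Tconv cells in Il2ramut/mut mice only, and was not called between genotypes. The part of such cells in the results was not tested. Of the CD8 markers, Cd8a was at background in every group and Cd8b1 above it on all arrays.

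**Figure D1:**
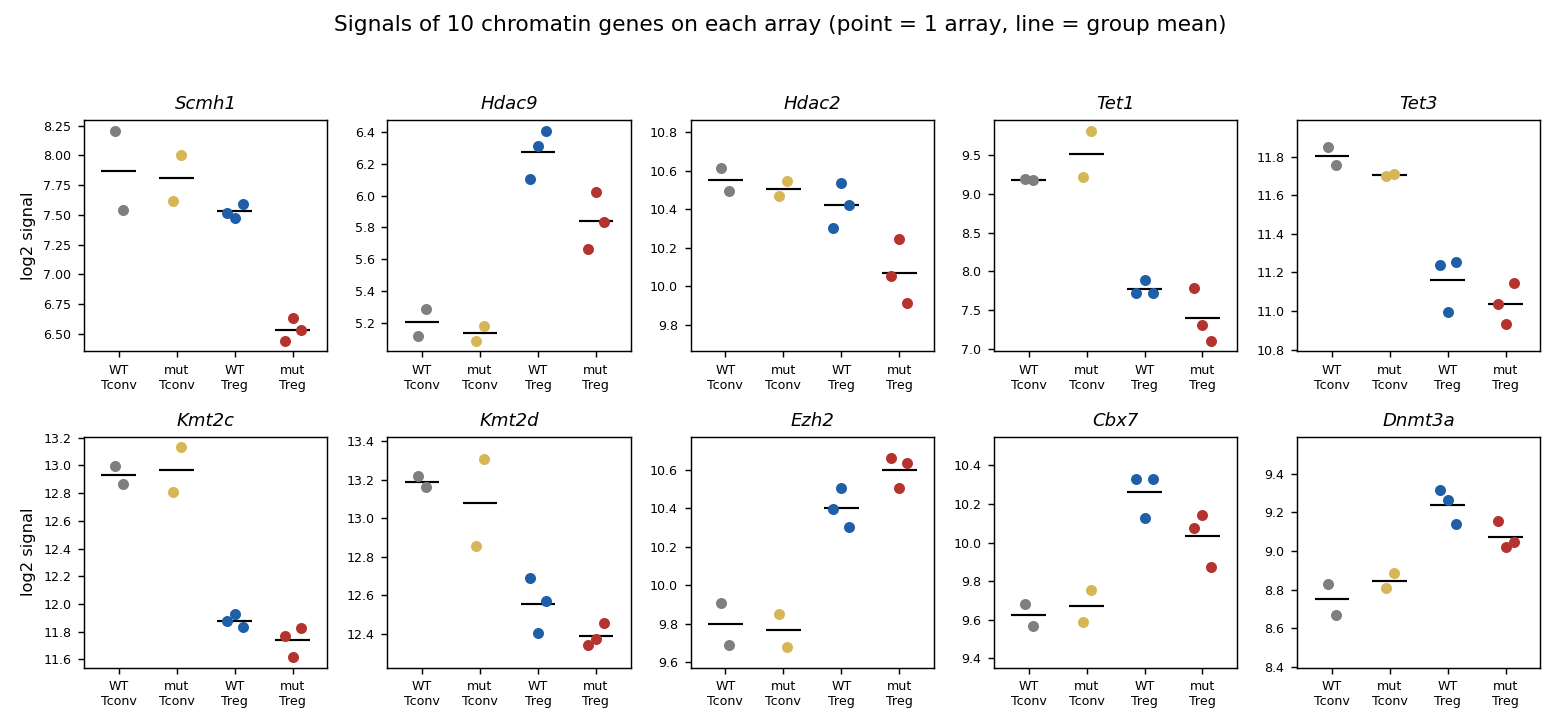
Log2 signals (vertical axis) of 10 chromatin genes on each of the 10 arrays, by group (horizontal axis, mut for Il2ramut/mut). Each point is 1 array and each line a group mean. The 3 Il2ramut/mut Treg points of Scmh1 (6.44 to 6.63) lie below all other points, and Tet1, Tet3, Kmt2c, Kmt2d, Ezh2 and Hdac9 separate Treg from Tconv arrays.

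The first question was whether the weaker IL-2 signal altered these genes in Treg cells. Scmh1 (TC0400001347.mm.1), whose Drosophila counterpart Sex comb on midleg is a polycomb group gene, gave signals of 7.52, 7.48 and 7.59 on the WT Treg arrays and 6.44, 6.63 and 6.53 on the Il2ramut/mut Treg arrays. All 3 Il2ramut/mut arrays lay about the same distance below all 3 WT arrays. The difference was -0.99 ± 0.17 (log2, SE), a 1.99-fold lower signal (95% interval -1.36 to -0.62, limma adjusted p = 0.0462). Called means an adjusted p under 0.05 over all 65956 probe sets. In Tconv cells Scmh1 was at 8.21 and 7.54 in WT and at 7.62 and 8.01 in Il2ramut/mut mice. These arrays interleaved and spread more widely than those of Treg cells, with a difference of -0.06 ± 0.20 (adjusted p = 0.982). In a bulk sample, fewer cells that express a gene and less RNA per cell cannot be told apart.

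The Scmh1 call lay close to the threshold. It was lost whichever of the 6 Treg arrays was left out (adjusted p = 0.104 to 0.16), while the difference stayed between -1.04 and -0.95. Of the 8 other settings, the second probe set only repeated the main fit, since Scmh1 has 1 probe set. In the rest the adjusted p ran from 0.0199 to 0.296, and the call was lost in 3 of them. Scmh1 was also the 1 member among the 386 probe sets (0.585%) that passed the study's own criterion, a fold of at least 1.5 with an unadjusted p of at most 0.01. In this comparison limma called 0.171% of all probe sets higher with the mutation and 0.202% lower. Among the 31437 probe sets above background on every array of at least 1 group, which all 38 members are, the shares were 0.334% and 0.423%. The 1 lower call among 38 genes stands beside those shares, but the 38 genes were chosen with earlier results of these data known. The shares therefore cannot show an excess of calls among them.

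After Scmh1, the lowest p belonged to a pair of histone deacetylases. Hdac9 (TC1200001625.mm.1), a class IIa enzyme whose loss in mice raises Treg numbers and suppression, was at 6.10, 6.31 and 6.41 in WT and 5.66, 6.02 and 5.83 in Il2ramut/mut Treg cells. The groups did not overlap, but the gap between the lowest WT and the highest Il2ramut/mut array was small. All Treg arrays were above background, but the 5.66 of Il2ramut/mut Treg replicate 1 was close to that array's background of 5.54. The difference was -0.44 ± 0.12, with an interval of -0.70 to -0.17 and an adjusted p of 0.232. Hdac2 (TC1000000312.mm.1), a class I enzyme of several corepressor complexes, was at 10.30, 10.54 and 10.43 in WT and 10.05, 10.25 and 9.91 in Il2ramut/mut Treg cells. These arrays did not overlap either (-0.35 ± 0.11, adjusted p = 0.296). Neither deacetylase passed the test under any left-out array, and no other deacetylase had an adjusted p under that of Hdac2.

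**Figure D2:**
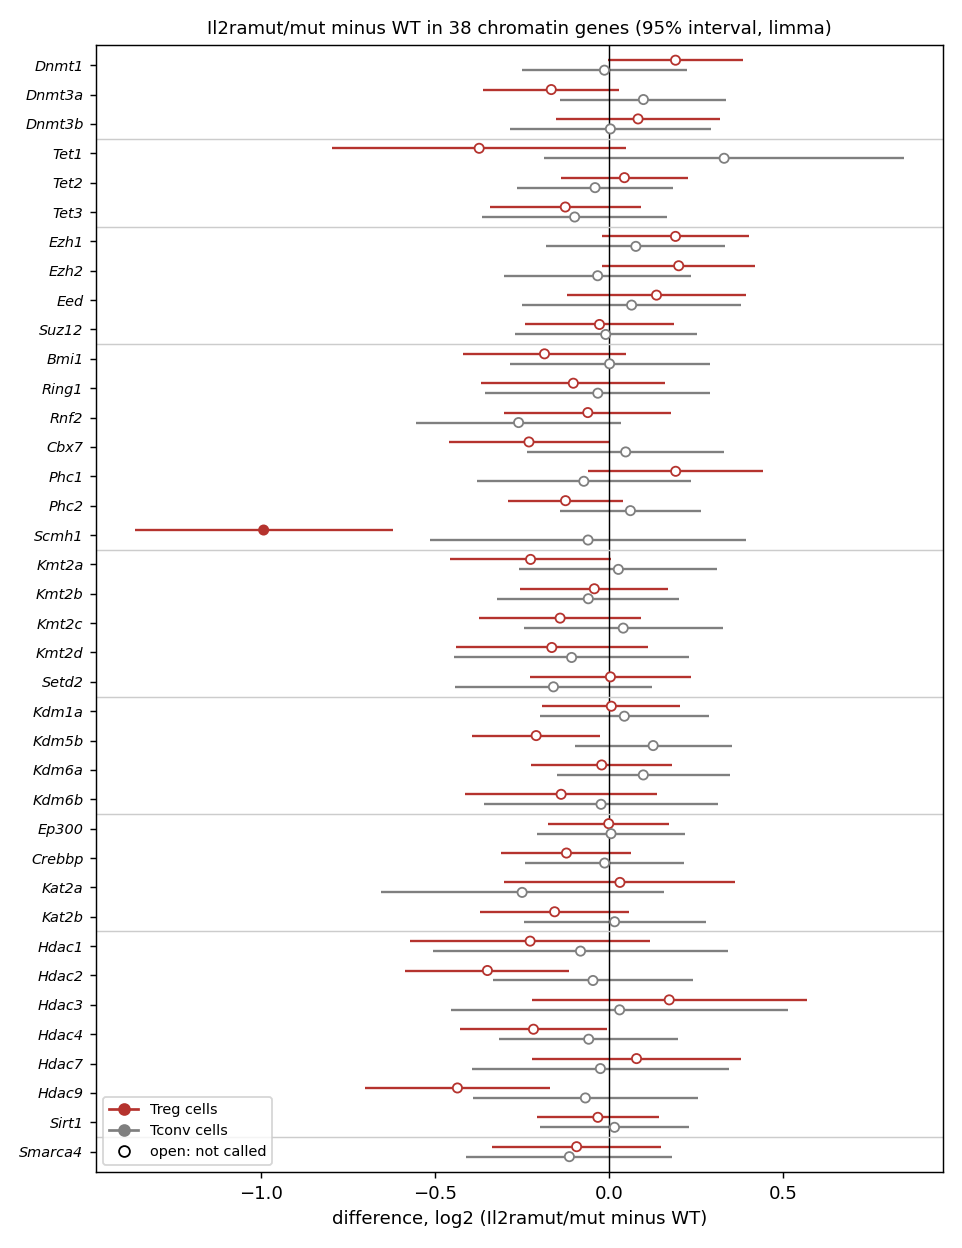
Difference between Il2ramut/mut and WT mice (horizontal axis, log2) for each of the 38 genes, in Treg cells (red) and Tconv cells (grey), with 95% intervals. Filled points were called, and grey lines part the roles. The Treg point of Scmh1 at -0.99 is the only filled one, and the other points of both colours lie between -0.44 and 0.33.

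By role, the polycomb repressive complex 1 genes were negative in 6 of 7 (median -0.13, with 1 called) and the deacetylases in 5 of 7 (median -0.22, 0 called). The polycomb repressive complex 2 genes were positive in 3 of 4 (median 0.16, 0 called), with Ezh2, the catalytic methyltransferase, at 0.20 ± 0.098 and Ezh1, its less active paralog, at 0.19 ± 0.094. The 3 DNA methyltransferases ranged from -0.17 (Dnmt3a) to 0.19 (Dnmt1), and the Tet enzymes from -0.37 ± 0.19 (Tet1, adjusted p = 0.566) to 0.04 (Tet2). The 5 histone methyltransferases ranged from -0.23 (Kmt2a) to 0.003 (Setd2), the 4 demethylases from -0.21 (Kdm5b) to 0.0056 (Kdm1a), and the 4 acetyltransferases from -0.16 (Kat2b) to 0.030 (Kat2a). Smarca4, the ATPase of the BAF remodeling complex, was at -0.094. Over all 38 genes 26 differences were negative (68.4%) and the median was -0.10. Among the probe sets above background 59.2% were negative with a median of -0.04, and with quantile normalization the median of the 38 moved to -0.02. An unadjusted limma p under 0.05 was reached by 5 of the 38 (13.2%), beside 14.4% of the probe sets above background.

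Arrays of both genotypes did not overlap for 12 members. The higher ones in Il2ramut/mut Treg cells were Dnmt1 and Ezh2. The lower ones were Scmh1, Phc2, Kmt2a, Kmt2c, Kdm5b, Crebbp, Kat2b, Hdac2, Hdac4 and Hdac9. That is 2 of 38 higher and 10 of 38 lower, beside 7.07% and 12.7% of the probe sets above background. Of the 10, all but Scmh1 had an adjusted p of 0.232 or more.

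In Tconv cells 0 of the 38 genes were called between genotypes by limma, which called 0.00303% of all probe sets. By the study's criterion 0 of the 38 passed as well, beside 0.105% of all probe sets. An unadjusted p under 0.05 was reached by 0 of the 38, beside 9.66% of the probe sets above background. Differences ran from -0.26 to 0.33, with a median of -0.01. The lowest p belonged to Rnf2 (TC0100003254.mm.1), the ubiquitin ligase of polycomb repressive complex 1, at 11.08 and 11.04 in WT and 10.65 and 10.95 in Il2ramut/mut cells. Both Il2ramut/mut arrays were lower, one of them by little (-0.26 ± 0.13, adjusted p = 0.745). Kat2a (TC1100003780.mm.1), the GCN5 acetyltransferase, was at 10.12 and 9.74 in WT and 9.44 and 9.92 in Il2ramut/mut cells, which overlap (-0.25 ± 0.18, adjusted p = 0.843). Without Il2ramut/mut Tconv replicate 1 the differences were -0.11 for Rnf2 and -0.01 for Kat2a, and without replicate 2 they were -0.41 and -0.49. For Kat2a it was -0.06 and -0.44 without WT Tconv replicates 1 and 2. Tet1 stood at 9.19 and 9.18 in WT and 9.21 and 9.82 in Il2ramut/mut cells. A single array carried this difference of 0.33 ± 0.23 (adjusted p = 0.834), which was 0.03 without Il2ramut/mut Tconv replicate 2. The early response genes Dusp1 and Jun, which rise within minutes of stimulation or stress, stood at 11.11 and 8.03 in Il2ramut/mut Tconv cells. In WT Tconv cells they stood at 8.32 and 6.22. Of 14 such genes 0 were called, but 12 were higher in Il2ramut/mut cells. An unadjusted limma p under 0.05 was reached by 6 of the 14 (42.9%), beside 9.66% of the probe sets above background. The part of these early response genes in the values of the 38 genes was not tested.

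The difference of the genotype effects between Treg and Tconv cells was tested as an interaction. None of the 38 genes was called (0.00152% of all probe sets were), and 3 (7.89%) had an unadjusted p under 0.05, beside 9.48% of the probe sets above background. They were Scmh1, with an interaction of -0.93 ± 0.26 (95% interval -1.52 to -0.35, limma adjusted p = 0.496), Kdm5b and Tet1. The Scmh1 value was -0.60 without WT Tconv replicate 2. The fall of Scmh1 in Treg cells is therefore not shown to differ from its change in Tconv cells. Kdm5b (TC0100001234.mm.1), which demethylates histone H3 at promoters, was at 10.55, 10.68 and 10.60 in WT and 10.39, 10.31 and 10.50 in Il2ramut/mut Treg cells. In Tconv cells it was at 10.52 and 10.59 in WT and 10.70 and 10.66 in Il2ramut/mut mice. It was thus lower on every Il2ramut/mut Treg array and higher on both Il2ramut/mut Tconv arrays, by little in each case (interaction -0.34 ± 0.13, adjusted p = 0.701). For Tet1 the interaction was -0.70 ± 0.30 (adjusted p = 0.749) and was -0.40 at its smallest when 1 array was left out.

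Treg cells were next compared with naive Tconv cells within each genotype. In WT mice 8 of the 38 genes were called, 4 higher and 4 lower in Treg cells, and in Il2ramut/mut mice 8 were called, 2 higher and 6 lower. Over all probe sets 4.37% were higher and 3.52% lower in WT, and 5.43% and 5.91% in Il2ramut/mut mice. Among the probe sets above background these shares were 8.9% and 6.72% in WT and 10.8% and 10.6% in Il2ramut/mut mice. Tet1, Tet3, Kmt2c, Kmt2d, Ezh2 and Hdac9 were called in both with the same direction, which makes 6 of the 8 in each genotype. The share of all probe sets called in both with the same direction was not computed. The 6 are therefore a count without a background to compare with. The comparisons use different arrays of each cell type, but were made in 1 fit that shares the estimate of the spread.

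Tet1 (TC1000002269.mm.1), a dioxygenase that starts the removal of DNA methylation, differed most. It was at 9.19 and 9.18 on the WT Tconv arrays and at 7.72, 7.89 and 7.72 on the WT Treg arrays. In Il2ramut/mut mice it was at 9.21 and 9.82 in Tconv and 7.78, 7.31 and 7.11 in Treg cells. Every Treg array lay more than a whole log2 unit below every Tconv array. The WT difference was -1.41 ± 0.21, a 2.66-fold lower signal (adjusted p = 0.00234), and the Il2ramut/mut difference was -2.11 ± 0.21, or 4.33-fold (adjusted p = 0.000127).

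Tet3 (TC0600002567.mm.1), a paralog of Tet1, was at 11.85 and 11.76 in WT Tconv and 11.24, 11.00 and 11.26 in WT Treg cells. In Il2ramut/mut mice the arrays read 11.70 and 11.71 in Tconv and 11.03, 10.93 and 11.14 in Treg cells. The groups were again apart, by a smaller step than for Tet1. The differences were -0.64 ± 0.11 in WT (adjusted p = 0.00497) and -0.67 ± 0.11 in Il2ramut/mut mice (adjusted p = 0.00302). Tet2, the remaining member of the family, was not called in either genotype (0.10 and 0.19, adjusted p = 0.591 and 0.258), with intervals of -0.10 to 0.31 and -0.02 to 0.39.

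Of the histone methyltransferases, Kmt2c and Kmt2d, the pair that monomethylates histone H3 at enhancers, were both lower in Treg cells. Kmt2c (TC0500002102.mm.1) was at 12.99 and 12.87 in WT Tconv, 12.81 and 13.13 in Il2ramut/mut Tconv, 11.87, 11.93 and 11.83 in WT Treg and 11.77, 11.61 and 11.83 in Il2ramut/mut Treg cells. All 6 Treg arrays lay well below all 4 Tconv arrays. The signal was 2.07-fold lower in WT (-1.05 ± 0.12, adjusted p = 0.000328) and 2.35-fold lower in Il2ramut/mut mice (-1.23 ± 0.12, adjusted p = 8.77e-05).

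Kmt2d (TC1500002192.mm.1), whose promoter window holds the STAT5-type letters given above, was at 13.22 and 13.16 in WT Tconv and 12.69, 12.41 and 12.57 in WT Treg cells, and at 12.86 and 13.31 in Il2ramut/mut Tconv and 12.34, 12.37 and 12.46 in Il2ramut/mut Treg cells. Its groups did not overlap, but 1 Il2ramut/mut Tconv array stood lower than the other. The differences were -0.63 ± 0.14 (adjusted p = 0.0199) and -0.69 ± 0.14 (adjusted p = 0.00972). The WT call was lost without WT Tconv replicate 1 or 2 or WT Treg replicate 2 or 3 (adjusted p up to 0.104) and with a replicate block (0.0557), and the Il2ramut/mut call without Il2ramut/mut Tconv replicate 2 (0.0729). Kmt2a, Kmt2b and Setd2 had differences between -0.20 and 0.05 in both genotypes and were not called.

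Ezh2 (TC0600002200.mm.1), the methyltransferase of polycomb repressive complex 2, is induced when T cells are activated and divide. Its signals were 9.91 and 9.69 in WT Tconv and 10.40, 10.50 and 10.30 in WT Treg cells, and 9.85 and 9.68 in Il2ramut/mut Tconv and 10.66, 10.50 and 10.63 in Il2ramut/mut Treg cells. Treg arrays were higher throughout, and the lowest Il2ramut/mut Treg array was level with the highest WT Treg array to a hundredth. Ezh2 was 1.52-fold higher in WT (0.60 ± 0.11, adjusted p = 0.00758) and 1.78-fold higher in Il2ramut/mut mice (0.83 ± 0.11, adjusted p = 0.00079). The WT call was lost without WT Tconv replicate 2 (adjusted p = 0.077). Its partners in the complex, Eed, Suz12 and the paralog Ezh1, ranged from -0.28 to 0.11 and were not called.

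Genes of dividing cells were also higher in Treg cells. The mean of 25 proliferation genes was 6.34 on both WT Tconv arrays, 6.37 and 6.40 on the Il2ramut/mut Tconv arrays, 7.08, 7.01 and 6.90 on the WT Treg arrays and 7.74, 7.48 and 7.43 on the Il2ramut/mut Treg arrays. Between 13 and 22 of the 25 were above background on an array. In Treg against Tconv cells 11 of the 25 were called higher in WT and 19 in Il2ramut/mut mice, beside 8.9% and 10.8% of the probe sets above background. Between the Treg genotypes 6 were higher in Il2ramut/mut cells (Mki67, Top2a, Ccnb2, Cdk1, Ncapg and Prc1), with a median of 0.54 over the list. Of the probe sets above background 0.334% were called higher there, and Ezh2 was not called (0.20, limma adjusted p = 0.555). Their part in the Ezh2 difference was not tested.

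**Figure D3:**
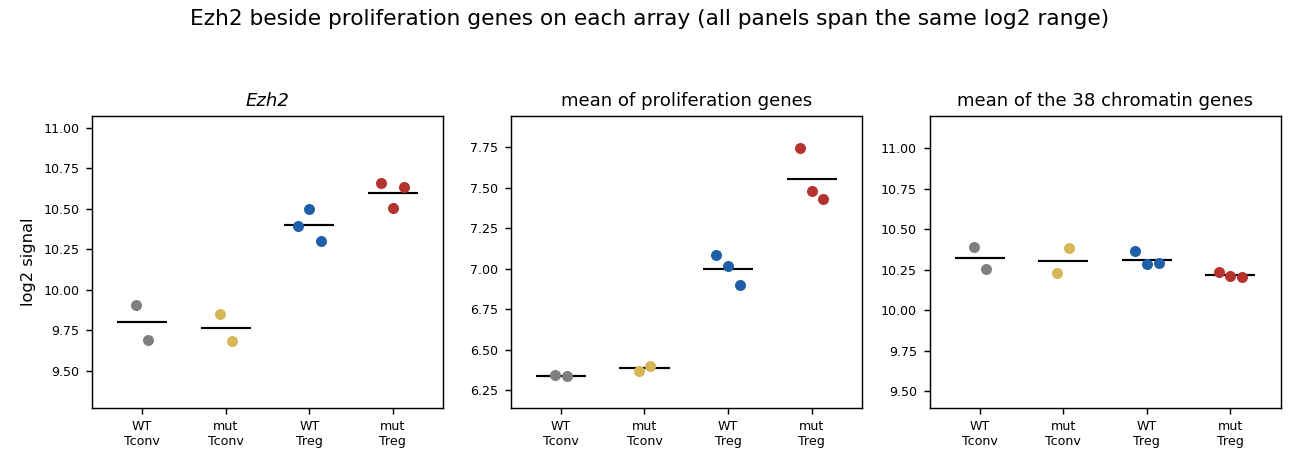
Log2 signal of Ezh2 (left), mean log2 signal of 25 proliferation genes (middle) and of the 38 chromatin genes (right) on each array, by group, with group means as lines. All panels span the same log2 range. Ezh2 and the proliferation mean are both higher on Treg than on Tconv arrays, and the mean of the chromatin genes lies between 10.21 and 10.39 on all 10 arrays.

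Hdac9 was near background in Tconv cells, at 5.11 and 5.29 in WT and 5.09 and 5.18 in Il2ramut/mut mice, against the Treg values of 5.66 to 6.41 given above. It was above background on 1 of 2 WT Tconv arrays and 0 of 2 Il2ramut/mut Tconv arrays. In WT mice it was higher in Treg cells by 1.07 ± 0.13 (log2, adjusted p = 0.00067), a value that rests in part on the Tconv array below background, and in Il2ramut/mut mice at least 1.45-fold higher (0.71 ± 0.13, adjusted p = 0.00681). The bound sets the mean of the bright group against the higher of each dim array's own signal and its background. The Il2ramut/mut call was lost without Il2ramut/mut Tconv replicate 1 (adjusted p = 0.0577). None of the other 6 deacetylases was called in WT mice. Hdac2 was lower in Il2ramut/mut Treg than Tconv cells (-0.44 ± 0.12, adjusted p = 0.0418), with a WT difference of -0.13 ± 0.12. That call was lost without either Il2ramut/mut Tconv array or without Il2ramut/mut Treg replicate 1 or 3 (adjusted p = 0.101 to 0.177), with quantile normalization (0.052), an intensity trend (0.0666), the compared groups alone (0.0925) and a replicate block (0.0937).

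There were 4 genes called in 1 genotype only, and the interaction above, which is the test of that contrast, called none of them. Cbx7 (TC1500001890.mm.1), a polycomb subunit that reads histone methylation, was at 9.68 and 9.57 in WT Tconv and 10.33, 10.13 and 10.33 in WT Treg cells, and at 9.59 and 9.75 in Il2ramut/mut Tconv and 10.08, 10.14 and 9.87 in Il2ramut/mut Treg cells. Treg arrays were higher in both genotypes, with a narrower gap in Il2ramut/mut mice. The WT difference was 0.64 ± 0.12 (adjusted p = 0.00727), lost without WT Tconv replicate 2 (0.0672), and the Il2ramut/mut difference was 0.36 ± 0.12 (adjusted p = 0.08). Dnmt3a, which methylates DNA anew, was higher in WT Treg cells by 0.49 ± 0.097 (adjusted p = 0.0119, lost without WT Tconv replicate 2 at 0.104), and stood at 0.23 ± 0.097 in Il2ramut/mut mice (adjusted p = 0.188). Scmh1 and Hdac2 were called in Il2ramut/mut mice alone. Scmh1 was 2.42-fold lower in Il2ramut/mut Treg than Tconv cells (-1.28 ± 0.18, adjusted p = 0.00148, kept in each of the 5 fits without 1 array), and in WT mice the difference was -0.34 ± 0.18 (adjusted p = 0.344).

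**Figure D4:**
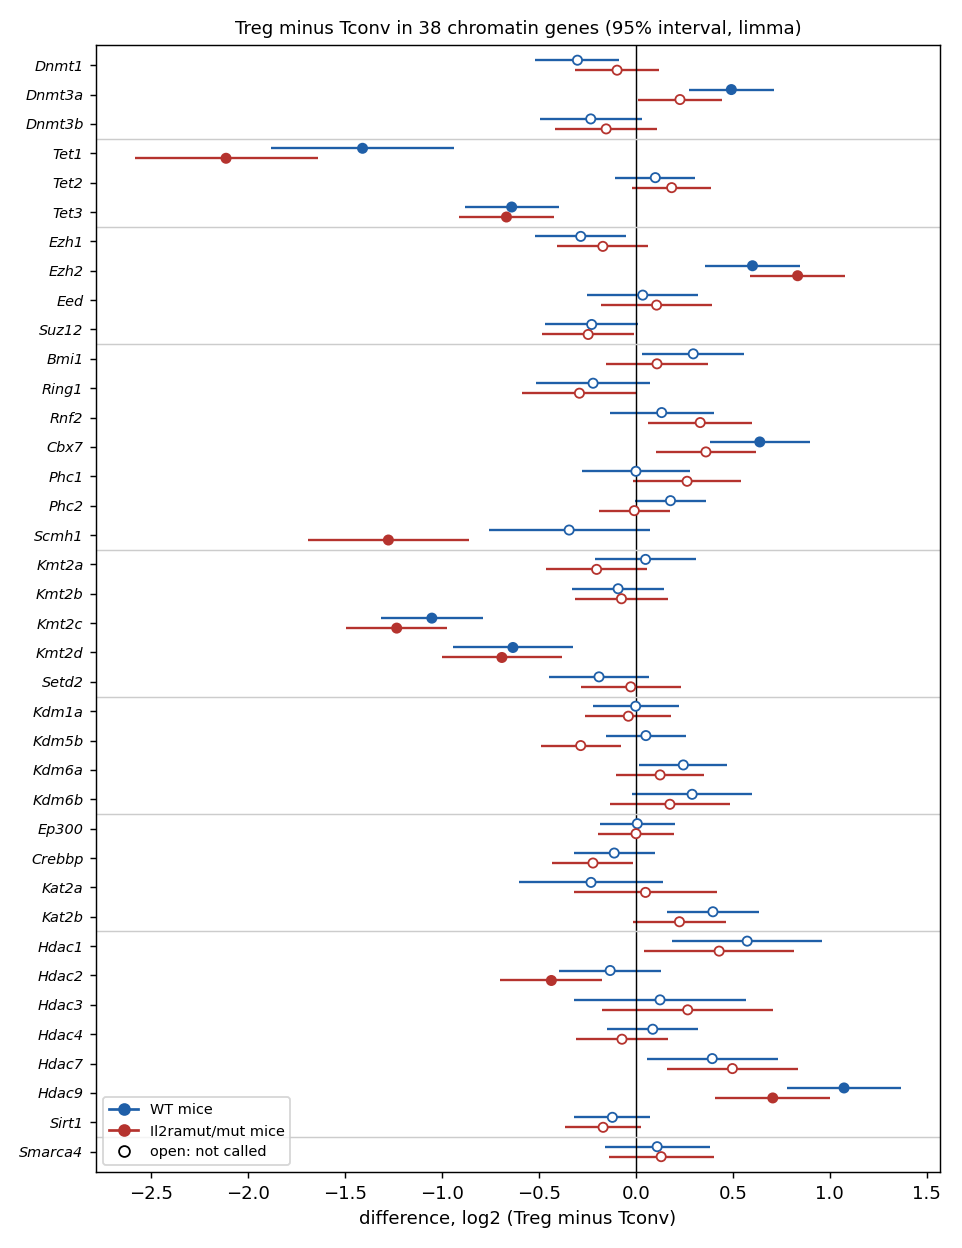
Difference between Treg and Tconv cells (horizontal axis, log2) for each of the 38 genes in WT mice (blue) and Il2ramut/mut mice (red), with 95% intervals. Filled points were called. Tet1, Tet3, Kmt2c and Kmt2d are filled on the left and Ezh2 and Hdac9 on the right in both genotypes, and the median of the 38 genes is 0.02 in WT and -0.02 in Il2ramut/mut mice.

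The remaining genes were not called between cell types. Hdac7, a class IIa deacetylase, was at 0.39 ± 0.15 in WT (adjusted p = 0.171) and 0.50 ± 0.15 in Il2ramut/mut mice (adjusted p = 0.0651). The 4 acetyltransferases were not called, with Kat2b, known as PCAF, nearest the threshold in WT mice (0.40 ± 0.11, adjusted p = 0.0522). Ep300 and Crebbp, the paralogous coactivators, lay between -0.22 and 0.01. The 4 demethylases, among them Kdm6a and Kdm6b, which remove the polycomb methyl mark, ranged from -0.28 to 0.29 with 0 called. The catalytic and structural polycomb repressive complex 1 genes Bmi1, Ring1, Rnf2, Phc1 and Phc2 ranged from -0.29 to 0.33 with 0 called. Dnmt1, which copies methylation after replication, was at -0.30 in WT (adjusted p = 0.103).

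Hdac1 is uncertain. The probe set that the rule picks carries a chromosome 17 identifier, whereas RefSeq places Hdac1 on chromosome 4, so it may share signal with a near-identical copy. It gave Treg against Tconv differences of 0.57 (adjusted p = 0.0817) in WT and 0.43 (adjusted p = 0.162) in Il2ramut/mut mice. The other probe set of the gene, with a chromosome 4 identifier (TC0400003599.mm.1), gave 0.28 (adjusted p = 0.192) and 0.19 (adjusted p = 0.334). Neither was called, and the values between Treg genotypes were the same to a hundredth (-0.23). Kdm6b and Hdac4 also had a pair of probe sets, none of them called in any comparison.

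A wider list of other chromatin genes was taken to set these in context, and 115 of its 124 genes were measured. Between genotypes, 0 of the 115 were called in Treg or Tconv cells or in the interaction, and 9.57%, 1.74% and 6.09% had an unadjusted p under 0.05, beside 14.4%, 9.66% and 9.48% of the probe sets above background. Between cell types, 20 were higher and 11 lower in Treg cells in WT mice, and 20 and 11 in Il2ramut/mut mice, to be read against the 8.9% and 6.72% (WT) and 10.8% and 10.6% (Il2ramut/mut) of probe sets above background. By role, 6 of 25 further polycomb genes were higher and 4 lower in WT Treg cells (5 and 4 in Il2ramut/mut mice). Of 9 further DNA methylation genes 4 were higher in each genotype and none lower. Of 29 further remodelers 4 were higher and 6 lower in WT and 5 and 5 in Il2ramut/mut mice.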

How the data were processed

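The authors deposited log2 signals, 1 for each probe set on each array. The submitters' processing notes name Affymetrix Expression Console 1.4.1.46 and Transcriptome Analysis Console 3.1.0.5. The log base was inferred from the values' range and the software. Not given in the sources used here are the normalization method and the genome build of the probe sets. Of 72688 probe sets, 6732 controls were left out. The platform annotation, with symbols updated through a RefSeq gene table, named 1 gene for 31292 of the rest, several for 1522 and none for 33142.

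Tests were run in R 4.3.3 with the limma package, version 3.58.1 (lmFit, contrasts.fit, eBayes), fitting 1 mean for each of 4 groups over 10 arrays, 6 residual and 3.54 prior degrees of freedom, and Benjamini-Hochberg adjustment over 65956 probe sets. The script was tested on simulated data. Levels were compared only within a probe set.

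Members and lists were chosen with earlier results of these data known. Values per array are given for members called between genotypes or among the 3 of lowest p in a genotype or interaction contrast, for those called in both genotypes between cell types, and for those called in 1 genotype with a difference over 0.5. Alternatives were quantile normalization, a background filter, probe sets naming 1 gene, an intensity trend, the compared groups alone, a replicate block, the second probe set, each array left out, and the unpaired ANOVA named in the study's methods. A fold against a group at background is given as a bound. The sources used here do not say whether a Treg and a Tconv array came from the same mouse.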

Additional observations from a re-analysis of the deposited data

How the results depend on the processing

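The count of genes called between Treg genotypes fell from 1 to 0 with an intensity trend, with a replicate block and with the methods' test after adjustment, and was 0 in each of the 6 fits that left out 1 Treg array. The median over the 38 genes in that comparison was -0.099, and -0.0193 with quantile normalization. In Tconv cells the median was -0.014 and ran from -0.0933 to 0.069 over the left-out arrays, and the median interaction was -0.0524 and ran from -0.1421 to 0.0303, so neither has a settled direction. Between cell types in WT mice the 8 calls became 5 to 8 without 1 array, 5 at the fold and p of the study and 2 with its test after adjustment. In Il2ramut/mut mice they became 6 to 8, 5 and 0 in the same order. At the fold and p of the study, Tet1, Cbx7, Kmt2c, Kmt2d and Hdac9 passed in WT mice. Tet1, Tet3, Ezh2, Scmh1 and Kmt2c passed in Il2ramut/mut mice, so only Tet1 and Kmt2c passed in both. Over all probe sets 3.75% passed in WT and 4.77% in Il2ramut/mut mice. Same-numbered arrays of WT and Il2ramut/mut Treg cells, which come from different mice, correlated at 0.04, 0.002 and -0.014 in their deviations from the group means. Same-numbered Treg and Tconv arrays correlated at 0.0573 and 0.0696 in WT and at -0.0373 and -0.0497 in Il2ramut/mut mice. The main fit did not take the numbers to pair mice, since the sources used here do not state it. With the replicate block, 7 genes were called in WT and 7 in Il2ramut/mut mice between cell types, and 0 in both genotype comparisons and the interaction. Same-numbered Tconv arrays correlated at -0.143, and with the numbers crossed, a setting chosen after seeing the data, 0 genes were called. No gene changed its direction in any setting of a comparison for which its values per array are given. The medians in Tconv cells and of the interaction did change direction, as given above. Depth is not known for arrays, and signals near background, as for Hdac9 in Il2ramut/mut Tconv cells, allow bounds only.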

Other observations

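Further chromatin genes, named here after their values were seen, differed more between cell types than most of the 38 did. Satb1, a genome organizer that folds chromatin loops in T cells, was lower in Treg than naive Tconv cells by -2.66 ± 0.18 in WT (log2, SE, limma adjusted p = 8.78e-06) and -3.36 ± 0.18 in Il2ramut/mut mice (adjusted p = 1.42e-06). Between the Treg genotypes its difference was -0.72 ± 0.16 (adjusted p = 0.124), and its interaction was not called (adjusted p = 0.647). The remodeler Chd7 was lower in Treg cells 4.06-fold in WT and 3.93-fold in Il2ramut/mut mice. Scml4, which is related in sequence to Scmh1, was lower 3.94-fold in each, and the polycomb gene Sfmbt2 was lower by -1.17 ± 0.15 and -1.72 ± 0.15.

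Other chromatin genes were higher in Treg cells. Gadd45b, a stress-induced gene also studied in DNA demethylation, differed by 2.58 ± 0.30 in WT (adjusted p = 0.000433) and 3.13 ± 0.30 in Il2ramut/mut mice (adjusted p = 9.13e-05). Nsd2, a histone methyltransferase, was 1.98-fold and 2.64-fold higher, and Asxl1, a subunit of the polycomb deubiquitinase, 2.02-fold and 1.89-fold. Uhrf1, which brings Dnmt1 to newly replicated DNA, was higher by 0.46 ± 0.092 and 0.85 ± 0.092, and between Treg genotypes it stood at 0.42 ± 0.082 (adjusted p = 0.0888). Proliferation genes were higher in the same groups, and their part in the Uhrf1 values was not tested.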
